A study of Mus musculus with 6 samples.

Results

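RNA sequencing of the aorta-gonad-mesonephros (AGM) region compared mouse embryos that had lost both alleles of Tph2 with wild-type embryos. Tph2 encodes a tryptophan hydroxylase, which makes the first and rate-limiting step of serotonin (5-hydroxytryptamine) synthesis. The comparison rested on 2 tph2-/- and 2 tph2+/+ libraries of the 6 in the series, and the 2 tph2+/- libraries served as a second group beside which values are given. All embryos were C57BL/6 at E11.5, and no other allele or treatment is given. The labels name littermate pairs but do not say which libraries share a litter or how many embryos went into 1 library, and they do not say which part of Tph2 was disrupted. The p-values therefore measure the spread between libraries, which may be technical. The deposited values were RPKM, which scale the reads of a gene to the length of its model and to the depth of the library. Of 23446 rows with a gene symbol, 12869 averaged 1 RPKM or more and were compared, on a log2(RPKM + 1) scale.

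The AGM is the part of the embryo around the dorsal aorta in which haematopoietic stem cells first form from arterial endothelium. It holds endothelium, the mesonephros and its duct, the gonadal ridge with its coelomic epithelium, sympathoadrenal cells of neural crest origin and mesenchyme. Liver, gut, neural tube, somites and limb buds lie next to it at this stage. Serotonin is known as a transmitter of brain and gut and is also made outside neurons, and the series was made to ask whether serotonin made in the AGM bears on the survival of blood stem and progenitor cells.

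Tph2 itself lay at the floor of detection, with 4 and 7 reads in tph2-/-, 5 and 3 in tph2+/-, against 6 and 9 in tph2+/+. This gave a ratio of 0.854 between tph2-/- and tph2+/+ (95% interval for counting error alone, 0.355 to 1.99). The genotype labels were therefore not checked by this gene. Tph1, the other tryptophan hydroxylase gene, had 11 and 7 reads in tph2-/-, 6 and 5 in tph2+/-, against 13 and 17 in tph2+/+. Slc6a4, which takes serotonin back into cells, was also under the filter and had 64 and 47 reads in tph2-/-, 69 and 85 in tph2+/-, against 60 and 41 in tph2+/+. Depth estimated from the steps between low RPKM values was 38800000 and 39200000 reads in tph2-/-, 40400000 and 40800000 in tph2+/-, against 46000000 and 44800000 in tph2+/+. At 1 RPKM a gene of 2 kb then rested on 77.5 to 92.0 reads. Both tph2-/- libraries carried a male pattern of Xist and Y-linked genes and both tph2+/+ libraries a female one, so genotype and sex cannot be told apart between them. Xist, the RNA of the inactive X chromosome, had 0.0590 and 0.114 RPKM in tph2-/-, 101 and 0.0916 in tph2+/-, against 79.1 and 76.3 in tph2+/+. On the X chromosome 24 of 445 tested genes rose and 10 fell, which is 7.64%.

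Loss of both alleles went with many small differences and a short list of large ones, and nearly all large ones were higher in tph2-/-. By limma, with p adjusted over all of them and a threshold of 0.05, 1241 of the 12869 genes (9.64%) differed, of which 751 were higher (5.84%) and 490 lower (3.81%) in tph2-/-. At least a 2-fold change was reached by 115 higher genes (0.894% of those tested) and by 1 lower gene (0.00777%), the limb and heart factor Tbx5. A 4-fold change was reached by 27 genes, all of them higher in tph2-/-. Among lower genes, 454 of 490 differed by less than 1.5-fold, and among higher genes 472 of 751 did. Both tph2-/- libraries lay above both tph2+/+ libraries in 35.7% of tested genes and below them in 24.2%. Of the 751 higher genes, 127 averaged under 1 RPKM in tph2+/+, and of the 490 lower genes 10 did in tph2-/-. Such genes passed the filter through other libraries, and counts of members that hold them are descriptions. The median log2 fold change over all tested genes was 0.03. Quantile normalization gave 548 higher and 667 lower genes, and scaling each library by a trimmed mean gave 618 and 645. When the mean level of Y-linked genes was added as a covariate, 195 were higher and 205 lower, and 272 of the 1241 kept their call. That covariate is separated from genotype by the 2 tph2+/- libraries alone, of which 1 had each pattern. The counts of higher and lower genes were 297 and 91 without tph2-/- replicate 1, 489 and 320 without tph2-/- replicate 2, 323 and 143 without tph2+/+ replicate 1, and 302 and 81 without tph2+/+ replicate 2. No gene past the threshold passed in the opposite direction in any of these fits. Of the 159 genes past the threshold that the text names, 113, 133, 119 and 108 passed without these 4 libraries in turn. Between tph2-/- and tph2+/-, in the same fit, 96 genes were higher (0.746%) and 70 lower (0.544%).

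**Figure D1:**
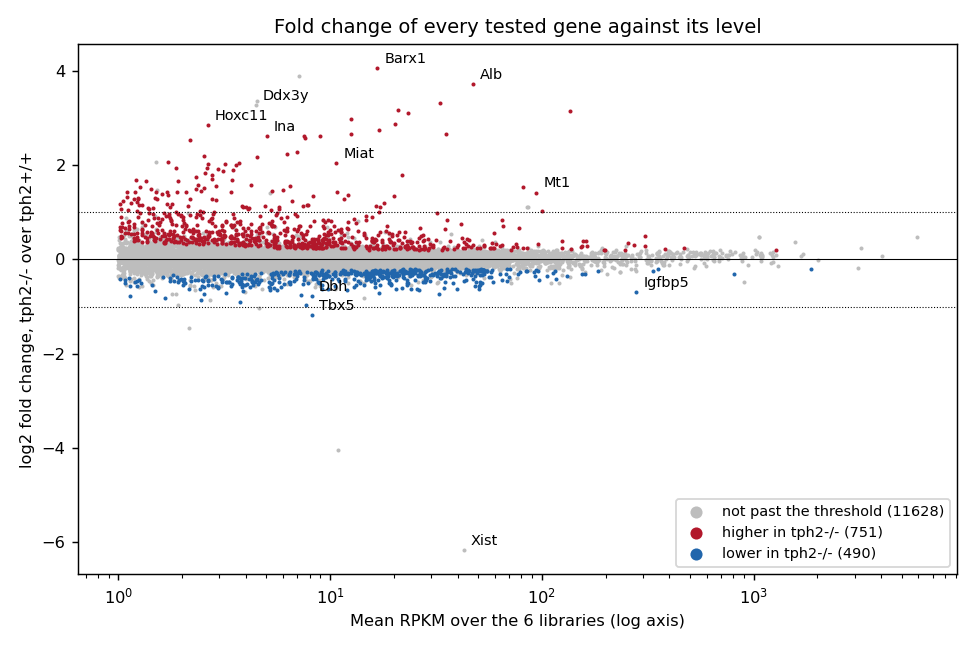
Each point is 1 of the 12869 tested genes, with its mean RPKM over the 6 libraries on a log axis and its log2 fold change of tph2-/- over tph2+/+ on the vertical axis, where dotted lines mark 2-fold. Of the 751 higher genes 115 lie past the upper dotted line, while Tbx5 is the only lower gene past the threshold that lies under the lower one, and Xist and Ddx3y, which vary within tph2+/-, did not pass.

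The largest group on the higher side encodes proteins that the fetal liver secretes into plasma. All 13 tested plasma carrier genes, all 7 tested apolipoprotein genes and 14 of 15 tested fibrinogen and coagulation genes rose in tph2-/-, against 5.84% of all tested genes. Their median log2 fold changes were 2.67, 1.95 and 1.93. Another 3 carrier, 7 apolipoprotein and 9 coagulation genes lay under the filter on the mean, and 5, 3 and 10 of those that rose averaged under 1 RPKM in tph2+/+, so that they passed the filter only through the tph2-/- and tph2+/- libraries. In the fit with Y-linked expression 12, 6 and 12 genes of these groups still passed.

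Promoter sequences are given for 4 of these genes because the secreted liver proteins moved together and several hold the same short letter run before their start sites. The run GTTAAT, which is 1 arm of the palindrome bound by the liver factor HNF1, was searched on both strands in the 250 bases before each start in RefSeq (GRCm38.p6). Of the 35 tested genes in these groups 29 were matched to a promoter, and 11 of the 29 held the run (37.9%). Over all genes with a promoter 7.49% held it, and over such tested genes 4.68%. Counted by single promoters, the share was 6.43% of 32851. The 11 genes were Alb, Afp, Apoc2, Apoe, Fga, Fgb, Vtn and Serpina1a, Serpina1b, Serpina1d and Serpina1e, and the last of these are near-identical copies of a single gene. A match is a description of letters and not a shown binding site. The 120 bases before the start follow on the strand of the gene, 5′ to 3′, with the run in capitals on whichever strand it lies.
Alb, chr5:90460750-90460869, plus strand: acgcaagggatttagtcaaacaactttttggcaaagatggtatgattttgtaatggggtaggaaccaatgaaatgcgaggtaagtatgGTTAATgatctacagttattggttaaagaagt
Afp, chr5:90490594-90490713, plus strand: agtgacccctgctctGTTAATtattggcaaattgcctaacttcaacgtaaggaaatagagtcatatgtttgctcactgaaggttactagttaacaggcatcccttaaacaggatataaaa
Fga, chr3:83026033-83026152, plus strand: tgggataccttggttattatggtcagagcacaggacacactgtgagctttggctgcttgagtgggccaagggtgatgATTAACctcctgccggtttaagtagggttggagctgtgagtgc
Fgb, chr3:83049864-83049983, minus strand: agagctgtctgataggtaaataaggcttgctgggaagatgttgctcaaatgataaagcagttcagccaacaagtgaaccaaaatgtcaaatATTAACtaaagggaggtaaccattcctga

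Alb, which encodes serum albumin, had 77.4 and 71.6 RPKM in tph2-/-, 41.3 and 83.2 in tph2+/-, against 4.8 and 4.55 in tph2+/+. Afp, which encodes alpha-fetoprotein, the main carrier of fetal plasma, had 221 and 202 RPKM in tph2-/-, 135 and 213 in tph2+/-, against 22.9 and 22.4 in tph2+/+. Both tph2-/- values of each lay far above both tph2+/+ values, and the tph2+/- libraries differed from each other, with replicate 1 lower. The log2 fold changes were 3.73 ± 0.372 (SE) for Alb, with a limma adjusted p of 0.0187, and 3.17 ± 0.228 for Afp, with 0.00427. Alb missed the threshold without tph2-/- replicate 1 (log2 fold change 3.68, adjusted p = 0.104), tph2-/- replicate 2 (3.79, 0.0624), tph2+/+ replicate 1 (3.77, 0.148) or tph2+/+ replicate 2 (3.70, 0.187). Afp missed it without either tph2+/+ replicate, at adjusted p of 0.0685 and 0.0797. Apoa1, the main protein of high-density lipoprotein, had 50.8 and 49.9 RPKM in tph2-/- and 4.04 and 4.23 in tph2+/+. Apoe, which carries lipid for receptor uptake and is also made outside the liver, had 119 and 129 RPKM in tph2-/- and 59.7 and 61.3 in tph2+/+. Fgb, the beta chain of fibrinogen, had 11.3 and 12.8 RPKM in tph2-/-, 7.55 and 11.8 in tph2+/-, against 1.05 and 1.28 in tph2+/+ (log2 fold change 2.59 ± 0.192, adjusted p = 0.00113). Further secreted proteins with large changes were Serpina6, which binds corticosteroids, Ambp, Apoa2 and Rbp4, the retinol carrier, which rose by 3.19, 3.12, 2.89 and 2.76 on the log2 scale. Trf, transferrin, rose by 2.67, and Ttr, the carrier of thyroid hormone, and Itih2, of the inter-alpha inhibitors, by 2.62 each. The other chains of fibrinogen, Fga and Fgg, rose by 2.02 and 2.01 on the log2 scale. Further members were Serpinf2, the plasmin inhibitor, at 2.67, Plg, the plasmin precursor, at 2.05, and F2, prothrombin, at 1.88. The coagulation gene that did not pass was Pros1, protein S, with 5.23 and 5.20 RPKM in tph2-/- and 5.45 and 5.07 in tph2+/+. Between tph2-/- and tph2+/-, 0 of the carrier, apolipoprotein and coagulation genes passed by limma, and 2, 0 and 1 of them had an unadjusted p under 0.05. The summed level of all 16 listed carrier genes was 493 and 466 RPKM in tph2-/-, 311 and 495 in tph2+/-, against 48.7 and 46.4 in tph2+/+. In a dissected tissue, more cells of a type and more RNA per cell cannot be told apart. Of the 13 carrier genes, 9 passed without tph2-/- replicate 1, 10 without tph2-/- replicate 2 and 9 without either of the tph2+/+ libraries, while the 14 coagulation genes passed in each of these fits.

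Complement, hepatic metabolism genes and liver regulators moved less. Of 7 tested hepatic metabolism genes 2 rose and 1 fell (median 0.28), against 5.84% and 3.81% of all tested genes. The sum over that list was 822 and 874 RPKM in tph2-/-, 845 and 940 in tph2+/-, against 1020 and 1020 in tph2+/+. Of 7 tested complement genes 4 rose, among them C3, the central component of the cascade, which had 3.45 and 3.39 RPKM in tph2-/-, against 0.521 and 0.547 in tph2+/+. Of 9 tested liver transcription factors 6 rose and 1 fell, with a median of 0.71. Hnf4a, a nuclear receptor required for hepatocyte genes, had 3.45 and 3.28 RPKM in tph2-/-, 2.60 and 3.56 in tph2+/-, against 0.604 and 0.466 in tph2+/+ (log2 fold change 1.51 ± 0.121, adjusted p = 0.000145). Foxa2 and Foxa1, which open liver and gut enhancers in endoderm, rose by 1.08 and 0.93, and Cebpa rose by 0.71. Tbx3, which acts in liver bud growth and also in limb and flank, fell. Adding Y-linked expression left 2 complement genes and 3 liver factors higher. Only 2 complement genes passed without tph2-/- replicate 1 or either tph2+/+ replicate, and without tph2+/+ replicate 2, 4 liver factors were higher.

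**Figure D2:**
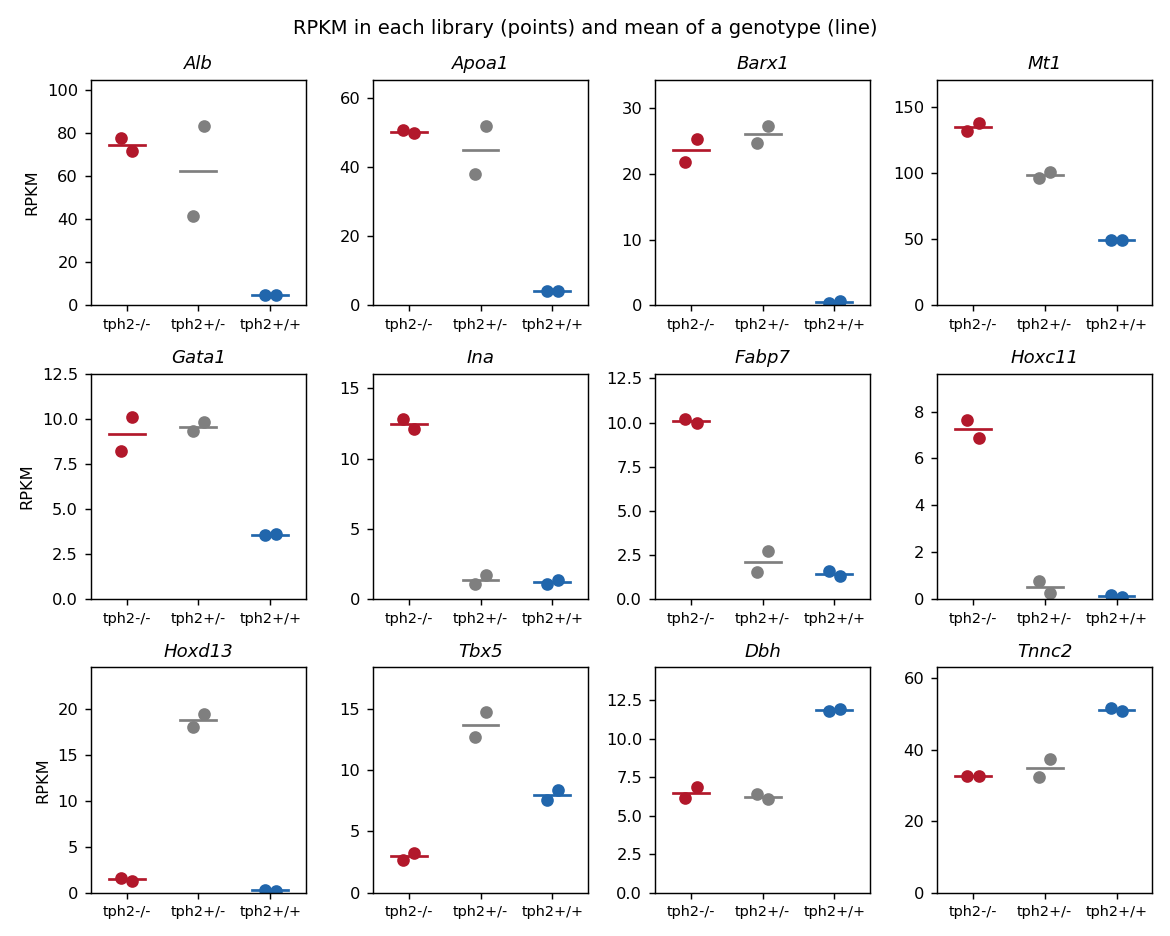
RPKM of 12 genes in each library, with tph2-/- at the left, tph2+/- in the middle and tph2+/+ at the right, and lines at the mean of each genotype (n = 2). In Alb, Apoa1, Barx1 and Gata1 both tph2-/- points lie above both tph2+/+ points. The tph2+/- points lie near those of tph2-/- in Barx1 and Gata1, while in Alb they spread from well below them to above them. In Ina, Fabp7 and Hoxc11 the tph2-/- points lie above both other genotypes, and in Tbx5, Dbh and Tnnc2 they lie below tph2+/+.

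Metallothioneins, small metal-binding proteins that buffer zinc and copper, formed a separate group. Mt1 had 132 and 138 RPKM in tph2-/-, 96.1 and 101 in tph2+/-, against 49.7 and 49.5 in tph2+/+. Mt2 had 124 and 116 RPKM in tph2-/-, 84.0 and 85.7 in tph2+/-, against 44.9 and 36.1 in tph2+/+. For both genes the 3 genotypes did not overlap, with tph2+/- in between. Mt1 rose by 1.42 ± 0.053 (adjusted p = 2.86e-06) and Mt2 by 1.55 ± 0.0911 (adjusted p = 4.04e-05) on the log2 scale. Between tph2-/- and tph2+/- the differences were 0.45 (adjusted p = 0.0035) for Mt1 and 0.49 (adjusted p = 0.044) for Mt2. Of 6 tested metallothionein and zinc transport genes 4 rose, beside 5.84% of all tested genes. The others that rose were Slc30a10, a manganese exporter, and Slc39a8, an importer of zinc and manganese, by 0.55 each. The count was 2 with the Y-linked covariate and also without tph2-/- replicate 1 or either tph2+/+ replicate. The core of the metal response element, TGCACNC or TGCGCNC, was searched because both metallothioneins are textbook targets of the zinc sensor that binds it. Of the 6 genes 5 were matched to a promoter, and all 5 held the core, over the same 250 bases and both strands. Over all genes with a promoter 23.8% held it, and over such tested genes 35.0%. Counted by single promoters, the share was 21.4%. The 120 bases before the starts are given in the same way, with the core in capitals.
Mt1, chr8:94178969-94179088, plus strand: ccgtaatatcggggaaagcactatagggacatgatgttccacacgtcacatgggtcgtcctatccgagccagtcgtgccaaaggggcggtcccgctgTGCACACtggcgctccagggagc
Mt2, chr8:94172498-94172617, plus strand: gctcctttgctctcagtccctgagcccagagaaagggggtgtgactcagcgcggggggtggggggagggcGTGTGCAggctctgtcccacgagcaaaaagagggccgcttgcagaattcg

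Stomach and gut genes went both ways. Of 19 tested genes of stomach and gut mesenchyme 6 rose and 4 fell (median 0.10), beside 5.84% and 3.81% of all tested genes. Of the 6 that rose, 3 averaged under 1 RPKM in tph2+/+, Barx1 among them. These passed the filter only through libraries in which they were higher. Of 15 tested genes of gut and foregut epithelium 4 rose (median 0.05, or -0.02 after quantile normalization). Barx1 (chromosome 13, 48662998 to 48666507, plus strand, GRCm38), a homeobox factor that patterns stomach mesenchyme, had 21.8 and 25.4 RPKM in tph2-/-, 24.8 and 27.3 in tph2+/-, against 0.336 and 0.590 in tph2+/+. It had the largest log2 fold change of the genes past the threshold, at 4.07 ± 0.102 (adjusted p = 3.03e-07), and its level in tph2-/- was 50.9 times that in tph2+/+. Foxf1, a forkhead factor of gut mesenchyme, had 13.7 and 16.3 RPKM in tph2-/-, 14.2 and 14.6 in tph2+/-, against 5.19 and 5.85 in tph2+/+. Fendrr, the long noncoding RNA transcribed next to Foxf1, rose with it by 1.48. Isl1, a LIM factor of stomach mesenchyme, motor neurons and heart, had 8.48 and 8.30 RPKM in tph2-/-, 5.21 and 5.65 in tph2+/-, against 3.16 and 3.45 in tph2+/+, and differed from tph2+/- as well (0.55, adjusted p = 0.007). Nkx2-3 and Nkx2-5, homeobox factors of gut and spleen mesenchyme and of pylorus, rose by 1.00 and 1.17. The 4 that fell were Gata6, Wnt5a, Sfrp1 and Actg2, by 0.49, 0.27, 0.31 and 0.53 on the log2 scale. The count of lower mesenchyme genes was 1 without tph2-/- replicate 1 or tph2+/+ replicate 2, and 2 without tph2+/+ replicate 1 or with the Y-linked covariate. The count of higher epithelial genes was 2 without any 1 of the tph2-/- and tph2+/+ libraries.

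Among 8 tested pancreas and endocrine genes 4 rose and 2 fell, beside 5.84% and 3.81% of all tested genes. Of the 4 that rose, 3 averaged under 1 RPKM in tph2+/+, Gcg and Sst among them. These passed the filter only through the libraries in which they were high. Gcg, which encodes glucagon, had 3.05 and 4.25 RPKM in tph2-/-, 3.93 and 4.06 in tph2+/-, against 0.0199 and 0 in tph2+/+. Sst, which encodes somatostatin and is also made by neurons, had 3.36 and 3.19 RPKM in tph2-/-, 0.331 and 0.531 in tph2+/-, against 0.436 and 0.261 in tph2+/+. Gcg was thus high in both mutant genotypes and Sst in tph2-/- alone, and Sst differed between tph2-/- and tph2+/- by 1.58 (adjusted p = 0.00022). Pdx1, the pancreas and duodenum factor, stayed under the filter, had 0.782 and 0.535 RPKM in tph2-/-, had 0.693 and 0.438 in tph2+/-, and was listed at 0 in both tph2+/+ libraries. The 2 that fell were Chga and Chgb, granule proteins of endocrine and adrenal cells, by 0.46 and 0.43 on the log2 scale. The Y-linked covariate left 2 of the 8 higher and 0 lower, and 0 were lower without tph2-/- replicate 1 or tph2+/+ replicate 2.

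**Figure D3:**
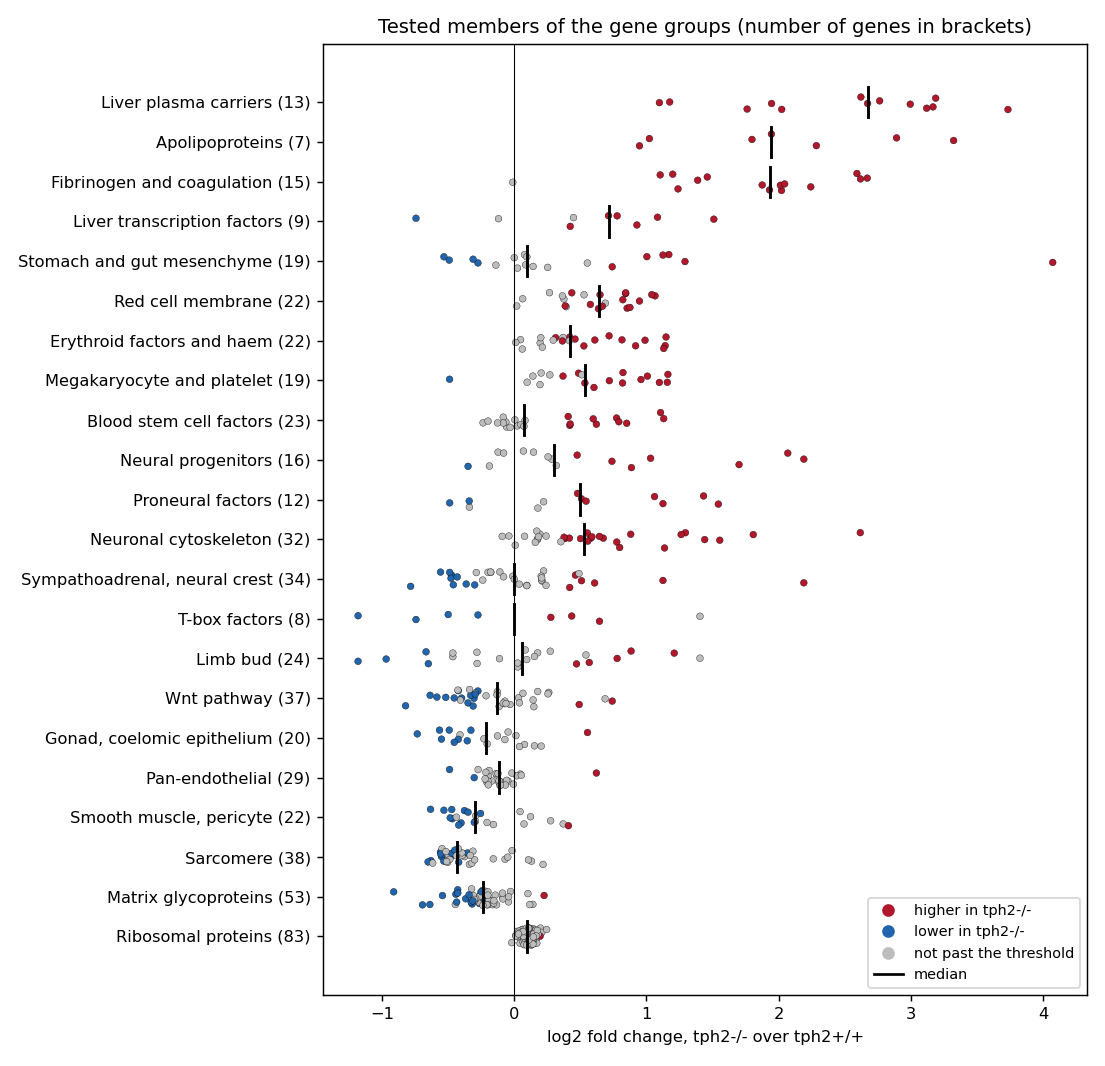
Log2 fold change of tph2-/- over tph2+/+ for the tested members of 22 gene groups, 1 point per gene, with the number of genes in brackets and a bar at the median. The 3 groups of secreted liver proteins lie far to the right, blood and neuronal groups mostly to the right of 0, and muscle, matrix and gonad groups mostly to the left by less than 1.

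Blood genes rose at several stages of differentiation, beside 5.84% of all tested genes that were higher. Of 22 tested red cell membrane genes 14 rose (median 0.64), of 22 tested erythroid factors and haem synthesis genes 13 rose (median 0.42), and of 19 tested megakaryocyte and platelet genes 12 rose and 1 fell (median 0.53). Of 23 tested stem and progenitor transcription factors, some of them shared with the erythroid and liver lists, 10 rose (median 0.07). Between tph2-/- and tph2+/- 0 genes of these groups passed by limma, and 0, 1, 10 and 6 of them had an unadjusted p under 0.05 in the order just given. Gata1, the master factor of red cells and megakaryocytes, had 8.23 and 10.1 RPKM in tph2-/-, 9.34 and 9.80 in tph2+/-, against 3.56 and 3.58 in tph2+/+. Its log2 fold change was 1.15 ± 0.0886 (adjusted p = 0.000119). Klf1, which switches on red cell genes, had 19.8 and 20.8 RPKM in tph2-/- and 8.18 and 9.11 in tph2+/+. Both tph2-/- libraries were above both tph2+/+ libraries in these genes and overlapped the tph2+/- libraries. Cpox, an enzyme of haem synthesis, rose by 0.99, Tfrc, the transferrin receptor, by 0.61, and Rhag, a protein of the red cell surface, by 1.07.

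The platelet genes Pf4 and Ppbp, which encode chemokines stored in granules, rose by 1.01 and 1.16, and Itga2b, the platelet integrin that also marks the first blood progenitors, by 0.72. Vwf, which is shared with endothelium, fell to 4.31 and 4.54 RPKM in tph2-/-, against 6.60 and 6.62 in tph2+/+. Ikzf1 and Gfi1b, factors of lymphoid and of erythroid and megakaryocyte lineages, rose by 1.11 and 1.13, Lmo2 and Tal1, partners in the early blood complex, by 0.85 and 0.62, and Myb, needed for definitive blood, by 0.77. Runx1, which drives the formation of blood from endothelium, had 1.40 and 1.26 RPKM in tph2-/- and 1.14 and 1.26 in tph2+/+ and did not pass (0.08 ± 0.125, adjusted p = 0.703). Kit, the stem cell factor receptor of blood progenitors, germ cells and melanoblasts, had 7.67 and 7.28 RPKM in tph2-/-, 6.86 and 6.87 in tph2+/-, against 5.54 and 5.56 in tph2+/+, and rose by 0.37 (adjusted p = 0.00806). Gfi1, a transcriptional repressor that acts in stem cells and in blood formation from endothelium, stayed under the filter at 0.07 to 0.173 RPKM over the 6 libraries. Among myeloid genes, Mpo, the granule enzyme myeloperoxidase, had 6.44 and 6.70 RPKM in tph2-/-, 3.94 and 5.39 in tph2+/-, against 1.53 and 1.51 in tph2+/+. S100a9, of neutrophil cytosol, had 6.56 and 5.90 RPKM in tph2-/-, 1.88 and 4.62 in tph2+/-, against 0.802 and 1.05 in tph2+/+, and lost its call without any of the 4 libraries (adjusted p of 0.09 to 0.258). Of 16 macrophage genes 2 rose, of which 1 or 0 passed without any of the 4.

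Globin genes, the most abundant of all blood transcripts, did not pass the threshold as single genes, although their median change was like that of the erythroid list. Of 10 tested globin genes 0 passed by limma, with a median of 0.48, beside 0.42 for erythroid factors and haem synthesis genes. An unadjusted p under 0.05 was reached by 5 of them, against 3448 of all 12869 tested genes. The sum over all globin genes was 15200 and 14200 RPKM in tph2-/-, 12100 and 17100 in tph2+/-, against 11400 and 10900 in tph2+/+. When the fit held the 4 libraries of tph2-/- and tph2+/+ alone, 4 globin genes were higher. Several globin genes are near-identical copies whose reads may be split. In the fit with Y-linked expression 1 red cell membrane gene, 5 erythroid, 7 megakaryocyte and 6 stem and progenitor genes were higher. Leaving out tph2-/- replicate 1, tph2-/- replicate 2, tph2+/+ replicate 1 and tph2+/+ replicate 2 in turn, the red cell membrane count was 3, 7, 6 and 5, the erythroid count 7, 8, 8 and 8, and the stem and progenitor count 6, 5, 5 and 5. Summed liver carriers moved with the globin, red cell membrane and erythroid sums, with tph2+/- replicate 1 below both tph2-/- libraries and replicate 2 above them. Platelet genes summed to 116 and 115 RPKM in tph2-/-, 135 and 142 in tph2+/-, against 72.4 and 73.3 in tph2+/+. Stem and progenitor factors summed to 339 and 345, 349 and 353, against 317 and 319 in the same order. In both, the tph2+/- libraries were highest. The part of the liver carriers in the result was not tested.

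**Figure D4:**
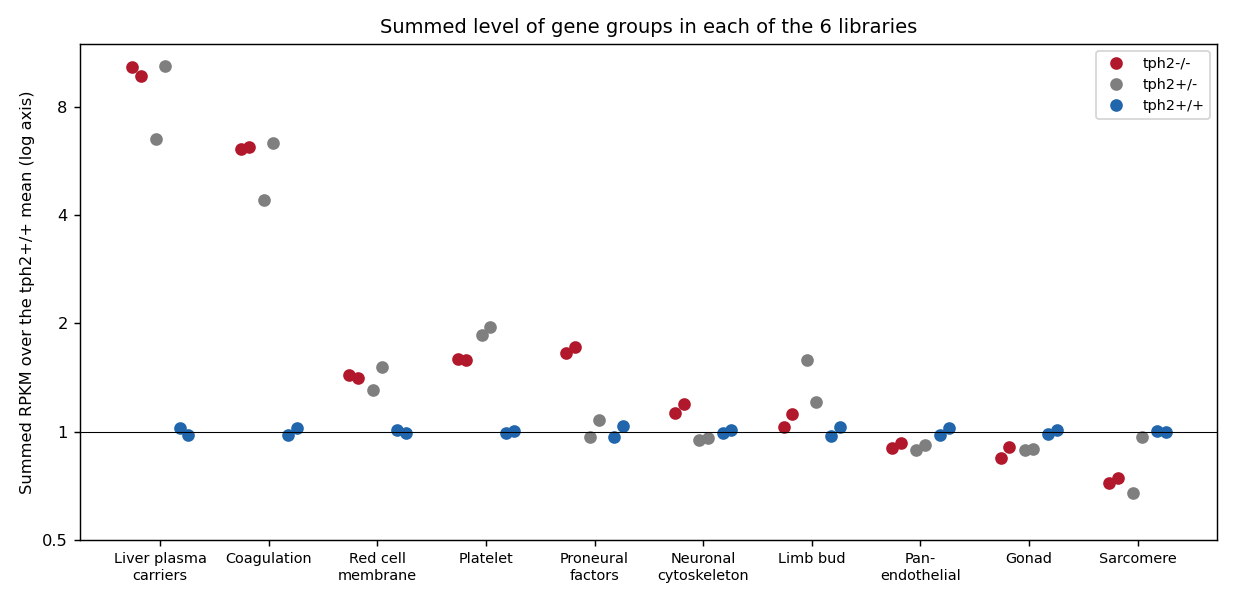
Summed RPKM of all listed members of 10 gene groups in each library, divided by the mean of the 2 tph2+/+ libraries on a log axis. Both mutant genotypes lie well above tph2+/+ for liver carriers and coagulation genes, both tph2-/- libraries lie above all 4 others for proneural and neuronal cytoskeleton genes, tph2+/- stands highest for limb bud genes, and sarcomere genes lie below 1 in tph2-/-.

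Genes of neuron formation and of the neuronal cytoskeleton were higher in tph2-/- than in both other genotypes, while axon guidance genes were mostly lower where they passed. Among all tested genes 5.84% were higher and 3.81% lower than in tph2+/+, and 0.746% were higher than in tph2+/-. Of 32 tested genes of the neuronal cytoskeleton and of neuronal RNA binding 20 rose against tph2+/+ (median 0.53). In that list 20 were higher than in tph2+/-. Of 12 tested proneural factors, which commit progenitors to neurons, 7 rose and 2 fell against tph2+/+ and 5 were higher than in tph2+/-. Of 16 tested neural progenitor genes 7 rose and 1 fell, and 5 were higher than in tph2+/-. Ina, a neurofilament-like protein of young neurons, had 12.8 and 12.1 RPKM in tph2-/-, 1.06 and 1.71 in tph2+/-, against 1.06 and 1.34 in tph2+/+. Tubb3, the neuronal tubulin, had 39.0 and 44.5 RPKM in tph2-/-, 11.1 and 14.1 in tph2+/-, against 11.4 and 11 in tph2+/+. In both genes the 2 tph2-/- libraries stood apart while the other 4 lay close together. Ina rose by 2.62 ± 0.129 (adjusted p = 1.31e-05), and was higher than in tph2+/- by 2.51 (adjusted p = 2.6e-05). Fabp7, a fatty acid binding protein of radial glia and of neural crest glia, had 10.2 and 9.97 RPKM in tph2-/-, 1.53 and 2.70 in tph2+/-, against 1.57 and 1.29 in tph2+/+. Hes5, a Notch target that keeps progenitors from differentiating, had 4.24 and 4.85 RPKM in tph2-/-, 0.214 and 0.385 in tph2+/-, against 0.359 and 0.280 in tph2+/+. Dll3, a Notch ligand of differentiating neurons and somites, had 2.47 and 2.73 RPKM in tph2-/- and 0.804 and 0.897 in tph2+/+. Sox2, Stmn2, Elavl3, Nhlh1 and Isl2 rose by 1.70, 1.55, 1.44, 1.54 and 1.43. Of the genes that rose, 3 in each of these 3 lists, Hes5 among them, averaged under 1 RPKM in tph2+/+, so they passed the filter through other libraries and had to be higher there. Of 42 tested axon guidance genes 1 rose and 11 fell (median -0.13), and 0 were higher and 1 lower than in tph2+/-. The netrin receptor Unc5b fell by 0.51, and Robo2, a receptor for Slit proteins, rose by 0.61. Without tph2-/- replicate 1, tph2+/+ replicate 1 or tph2+/+ replicate 2, 3, 4 and 2 axon guidance genes were lower, and 2 were with the Y-linked covariate. Of 14 tested synapse and neurosecretion genes 2 rose and 2 fell, and 1 was higher in each of the fits that left out a tph2-/- or tph2+/+ library.

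Many regulators of neurogenesis were too low on average for the filter and are described here from the fit without a filter, in which 802 of 19818 genes were higher (4.05%) and 276 lower (1.39%). There, 22 of 27 proneural factors under the filter and 8 of 15 neural progenitor genes under it were higher in tph2-/-. Genes this low can differ by that test only where 1 group is high, so these counts are a description. Neurog1, a proneural factor of sensory ganglia and neural tube, had 2.43 and 2.57 RPKM in tph2-/-, 0.0446 and 0.353 in tph2+/-, against 0 and 0.0268 in tph2+/+. Neurog2, its close relative, had 2.01 and 2.13 RPKM in tph2-/-, 0.0224 and 0.0110 in tph2+/-, against 0.0196 and 0.0704 in tph2+/+. Neurod4 had 1.32 and 1.07 RPKM in tph2-/- and 0.0065 and 0 in tph2+/+. Pax6, a factor of ventral neural tube, eye and pancreas, had 0.813 and 0.762 RPKM in tph2-/-, 0.0808 and 0.0466 in tph2+/-, against 0.00591 and 0.0363 in tph2+/+. In all 4 genes both tph2-/- libraries were above all other libraries. The sum over all 39 listed proneural factors was 85.5 and 88.8 RPKM in tph2-/-, 49.9 and 55.7 in tph2+/-, against 49.8 and 53.3 in tph2+/+. With the Y-linked covariate 9 cytoskeleton, 4 proneural and 4 progenitor genes with a mean over the filter were higher. The proneural count was 4, 5, 4 and 6, the progenitor count 4, 5, 4 and 4 and the cytoskeleton count 15, 16, 14 and 17 without tph2-/- replicate 1, tph2-/- replicate 2, tph2+/+ replicate 1 and tph2+/+ replicate 2.

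Sympathoadrenal and neural crest genes went both ways, 6 higher and 9 lower of 34 tested, against 5.84% and 3.81% of all tested genes. Those of noradrenaline-making cells were lower. Dbh, which makes noradrenaline from dopamine, had 6.14 and 6.85 RPKM in tph2-/-, 6.38 and 6.09 in tph2+/-, against 11.8 and 11.9 in tph2+/+. Its log2 fold change was -0.78 ± 0.0689 (adjusted p = 0.000245). Th, the first enzyme of catecholamine synthesis, and Phox2a and Gata3, factors of the same cells, fell by 0.47, 0.49 and 0.56 on the log2 scale. The early crest factors Sox10 and Foxd3 rose by 0.46 and 0.42. Fabp7 and Isl1, described above with other groups, are also counted here. Ntrk3, a neurotrophin receptor, fell by 0.48. The Y-linked covariate left 2 genes higher and 2 lower, and the count of lower genes was 2, 4, 3 and 1 without tph2-/- replicate 1, tph2-/- replicate 2, tph2+/+ replicate 1 and tph2+/+ replicate 2. The count of higher genes was 4 in each of these fits.

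Hox genes, which give cells their position along the body axis, changed by cluster and by position within it. In the HoxC cluster 1 of 7 tested genes rose and 4 fell, beside 5.84% and 3.81% of all tested genes. The anterior and central genes Hoxc4, Hoxc5, Hoxc6 and Hoxc8 fell by 0.59, 0.64, 0.61 and 0.55 on the log2 scale. Hoxc6 had 28.0 and 30.5 RPKM in tph2-/-, 28.8 and 29.4 in tph2+/-, against 44.1 and 45.8 in tph2+/+, so both mutant genotypes lay below tph2+/+. Hoxc11, at the posterior end, had 7.64 and 6.88 RPKM in tph2-/-, 0.785 and 0.241 in tph2+/-, against 0.190 and 0.0975 in tph2+/+. It rose by 2.85 ± 0.16 (limma adjusted p = 2.74e-05) and was higher than in tph2+/- by 2.47 (adjusted p = 0.00011). Because Hoxc11 was under 1 RPKM in all other libraries, it passed the filter only through tph2-/- and had to be higher there. Its neighbour Hoxc12 stayed under the filter, had 2.45 and 2.27 RPKM in tph2-/-, had 0.294 and 0.552 in tph2+/-, and was listed at 0 in both tph2+/+ libraries.

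In the HoxD cluster the 4 genes from Hoxd10 to Hoxd13 rose by 1.25, 1.45, 0.62 and 0.96, and the 4 other tested genes did not pass. Among all tested genes 5.84% were higher and 3.81% lower. Of the 4 that rose, 2 averaged under 1 RPKM in tph2+/+, Hoxd13 among them, and passed the filter only through other libraries. Hoxd13, the last of the cluster, had 1.61 and 1.30 RPKM in tph2-/-, 18.1 and 19.5 in tph2+/-, against 0.289 and 0.233 in tph2+/+. The tph2-/- level was thus above tph2+/+ and far below tph2+/-, with a difference from tph2+/- of -3.01 (adjusted p = 1.6e-06). Hoxa11 had 6.54 and 6.75 RPKM in tph2-/-, 17.8 and 14.6 in tph2+/-, against 2.00 and 2.00 in tph2+/+, and Hoxa10 rose by 0.90. Hoxa11 overlaps an antisense gene, Hoxa11as, which had 6.36 and 6.78 RPKM in tph2-/-, 26.5 and 21.9 in tph2+/-, against 1.76 and 1.79 in tph2+/+. Because the libraries were unstranded, their reads may be assigned to either gene. Hoxa3 and Hoxa7 fell by 0.23 and 0.55. In the HoxB cluster 1 of 8 tested genes passed, Hoxb5 at 0.29, which did not pass after quantile normalization. The HoxC calls, 1 higher and 4 lower, held without each tph2-/- or tph2+/+ library, while the HoxA counts were 1 higher and 1 lower in each of these fits.

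**Figure D5:**
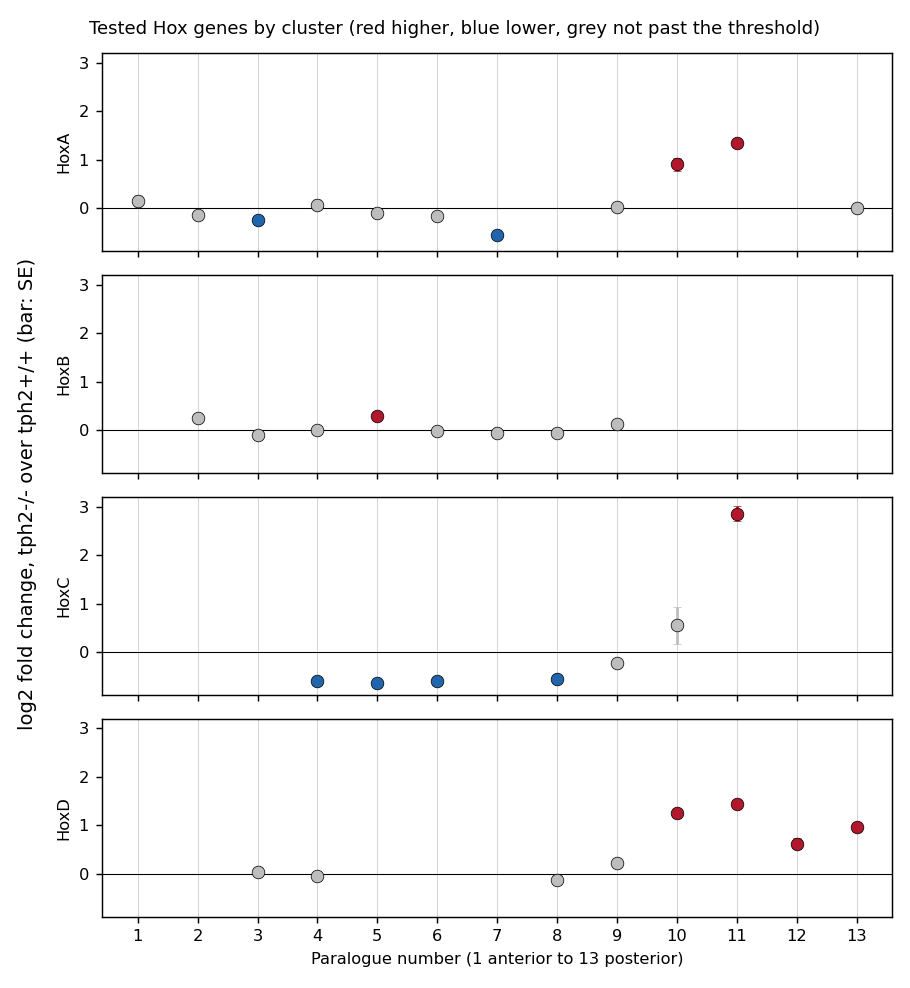
Log2 fold change of tph2-/- over tph2+/+ with its SE for each tested Hox gene, by cluster from top to bottom and by paralogue number from left to right. Genes 10 and 11 of HoxA, 11 of HoxC and 10 to 13 of HoxD lie above 0, and genes 4 to 8 of HoxC lie below it at -0.64 to -0.55.

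T-box and limb bud genes went both ways, and the gene with the largest fall of those past the threshold was among them. Tbx5, which starts the forelimb bud and acts in heart formation, had 2.68 and 3.24 RPKM in tph2-/-, 12.7 and 14.7 in tph2+/-, against 7.53 and 8.40 in tph2+/+. The 3 genotypes did not overlap, with tph2-/- lowest and tph2+/- highest. The log2 fold change was -1.18 ± 0.0956 (adjusted p = 0.00015) against tph2+/+ and -1.89 (adjusted p = 2.6e-05) against tph2+/-. Tbx3, of flank, limb and liver, had 24.0 and 26.8 RPKM in tph2-/-, 29.6 and 29.7 in tph2+/-, against 42.0 and 44.2 in tph2+/+, and its relative Tbx2 fell by 0.50. Tbx15 and Tbx18, of dermis and urogenital mesenchyme, rose by 0.65 and 0.44. Tbx4, the hindlimb counterpart of Tbx5, had 7.00 and 8.14 RPKM in tph2-/-, 8.48 and 3.27 in tph2+/-, against 2.10 and 2.37 in tph2+/+ and did not pass (1.40 ± 0.425, adjusted p = 0.143), but passed when either tph2+/- library was left out (3.12e-05 and 2.66e-05). Of 24 tested limb bud genes 5 rose and 4 fell against tph2+/+, beside 5.84% and 3.81% of all tested genes. Their median was 0.06, or -0.04 after quantile normalization. Of these limb bud genes 8 were lower than in tph2+/-, beside 0.544% of all tested genes. Shox2, of the proximal limb and of heart, rose by 1.21, and Lhx2, which also acts in liver stellate cells, by 0.78. Alx1 and En1 fell by 0.67 and 0.65. The 3 higher and 4 lower T-box genes became 1 and 2 without tph2-/- replicate 1, 2 and 3 without tph2-/- replicate 2, 1 and 3 without tph2+/+ replicate 1 and 1 and 2 without tph2+/+ replicate 2. The limb bud count of higher genes was 3 in each of these fits.

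Signalling genes of mesenchyme and epithelium mostly changed by less than 1.5-fold. Over all tested genes 3.81% were lower and 5.84% higher. Of 37 tested Wnt ligands, receptors and feedback genes 13 fell and 2 rose (median -0.13), among them the ligands Wnt6 and Wnt2, which fell by 0.64 and 0.58, the Wnt agonist Rspo4, which fell by 0.82, and the feedback genes Axin2 and Notum, which fell by 0.30 and 0.52. Wnt4, which acts in nephron and ovary formation, had 7.46 and 8.88 RPKM in tph2-/-, 8.61 and 7.83 in tph2+/-, against 11.1 and 11.4 in tph2+/+. The count of lower Wnt genes was 2, 7, 4 and 2 without tph2-/- replicate 1, tph2-/- replicate 2, tph2+/+ replicate 1 and tph2+/+ replicate 2, and 2 with the Y-linked covariate. In the Hedgehog pathway the ligand Shh rose by 0.88 and its receptor and target Ptch1 by 0.47, while the effectors Gli2 and Gli3 fell by 0.33 and 0.25. Shh had 3.38 and 3.67 RPKM in tph2-/-, 2.28 and 2.63 in tph2+/-, against 1.29 and 1.62 in tph2+/+. In the fit with Y-linked expression 0 of 13 Hedgehog genes passed by limma, and 2 were higher and 0 lower without tph2-/- replicate 1 or tph2+/+ replicate 2. Bmp4, a ligand of the ventral aorta and limb, had 15.9 and 17.4 RPKM in tph2-/-, 23.3 and 22.4 in tph2+/-, against 25.1 and 26.8 in tph2+/+, and was lower than in tph2+/- too (-0.44, adjusted p = 0.011). Kcp, a secreted modulator of BMP signalling, had 8.14 and 9.5 RPKM in tph2-/-, 13.1 and 12.3 in tph2+/-, against 14.2 and 14.7 in tph2+/+, and was likewise lower than in tph2+/- (-0.49, adjusted p = 0.0166). Gdf5, of joints, had 2.42 and 2.37 RPKM in tph2-/-, 3.86 and 3.97 in tph2+/-, against 0.742 and 0.732 in tph2+/+.

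Genes of endothelium, gonad and mesonephros, which make up the AGM, went both ways, with more of them lower. Of 29 tested pan-endothelial genes 1 rose and 2 fell (median -0.12), beside 5.84% and 3.81% of all tested genes. Cdh5, the endothelial cadherin, had 26.2 and 26.8 RPKM in tph2-/-, 25.3 and 26.1 in tph2+/-, against 28.7 and 29.7 in tph2+/+, and did not pass (-0.13 ± 0.0529, adjusted p = 0.146). Of 24 arterial and venous genes 1 rose and 5 fell, among them Gja5, an arterial connexin, and Hey1, a Notch target of arteries, by 0.41 and 0.38 on the log2 scale. Of 20 tested gonad and coelomic epithelium genes 8 fell and 1 rose (median -0.22), against 3.81% of all tested genes lower. Wt1, a zinc-finger factor of coelomic epithelium, gonad and kidney, had 14.7 and 16.1 RPKM in tph2-/-, 14 and 13 in tph2+/-, against 22.8 and 23.1 in tph2+/+. Its log2 fold change was -0.55 ± 0.0649 (adjusted p = 0.00124). Nr5a1, the steroidogenic factor of gonad and adrenal, fell by 0.56, Amhr2, the receptor for anti-Müllerian hormone, by 0.73, and Rspo1, an ovary-promoting Wnt agonist, by 0.45, while Tcf21, of mesenchyme around gonad and kidney, rose by 0.55. Of 23 mesonephros and nephric duct genes 4 rose and 6 fell, with Gdnf and its receptor Ret, which guide ureteric budding, higher by 0.72 and 0.61. Pax2, an early factor of nephric duct and mesonephros, had 1.54 and 1.5 RPKM in tph2-/-, 0.622 and 0.388 in tph2+/-, against 1.03 and 1.10 in tph2+/+, and passed against tph2+/- (0.75, adjusted p = 0.0118) but not against tph2+/+ (0.28, adjusted p = 0.141). Counts of lower gonad genes were 4, 5 and 4, of arterial and venous genes 2, 3 and 2, and of mesonephros genes 1, 2 and 1, without tph2-/- replicate 1, tph2+/+ replicate 1 or tph2+/+ replicate 2, and 3, 1 and 0 with the Y-linked covariate. The summed level of gonad genes was 280 and 300 RPKM in tph2-/-, 295 and 296 in tph2+/-, against 327 and 335 in tph2+/+.

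Muscle genes were mostly lower where they passed. Over all tested genes 3.81% were lower and 5.84% higher. Of 38 tested sarcomere genes 12 fell (median -0.43), of 28 myogenic and somite factors 10 fell and 1 rose (median -0.18), and of 22 smooth muscle and pericyte genes 11 fell and 1 rose (median -0.30). Tnnc2, fast muscle troponin C, had 32.7 and 32.7 RPKM in tph2-/-, 32.5 and 37.3 in tph2+/-, against 51.6 and 50.8 in tph2+/+ (log2 fold change -0.63 ± 0.0672, adjusted p = 0.000744). Myog, the factor of muscle differentiation, had 50.3 and 50.3 RPKM in tph2-/-, 49.1 and 63.3 in tph2+/-, against 71.4 and 69.8 in tph2+/+, and it lost its call without any of these 4 libraries (adjusted p of 0.111 to 0.186). Both tph2-/- libraries were below both tph2+/+ libraries in each gene, while of the tph2+/- libraries replicate 1 lay just below both tph2-/- values and replicate 2 between the genotypes. Meox1, a somite factor, fell by 0.50 and was higher in tph2-/- than in tph2+/- (0.37, adjusted p = 0.01). Acta2 and Tagln, contractile proteins of smooth muscle, fell by 0.63 and 0.47. Summed sarcomere genes had 781 and 806 RPKM in tph2-/-, 731 and 1050 in tph2+/-, against 1090 and 1080 in tph2+/+. With the fit restricted to the 4 libraries of tph2-/- and tph2+/+, 29 sarcomere genes were lower, and with the Y-linked covariate 30 were. The count of lower genes was 2, 5, 4 and 3 for sarcomere, 3, 7, 4 and 3 for smooth muscle and 2, 4, 5 and 2 for myogenic genes without tph2-/- replicate 1, tph2-/- replicate 2, tph2+/+ replicate 1 and tph2+/+ replicate 2.

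Of 53 tested matrix glycoprotein and proteoglycan genes 19 fell and 1 rose (median -0.24), and of 27 collagens outside cartilage 6 fell. The share of lower genes over all tested genes was 3.81%. Thbs4, a thrombospondin of tendon and muscle, had 2.63 and 2.52 RPKM in tph2-/-, 2.99 and 2.82 in tph2+/-, against 5.65 and 5.79 in tph2+/+, and fell by 0.91 ± 0.0763 (adjusted p = 0.000195). Igfbp5, a matrix-bound insulin-like growth factor binding protein, had 221 and 221 RPKM in tph2-/-, 232 and 288 in tph2+/-, against 360 and 355 in tph2+/+. Its ligand Igf2, the main growth factor of the embryo and imprinted, had 709 and 754 RPKM in tph2-/-, 742 and 813 in tph2+/-, against 907 and 902 in tph2+/+. Mir483, a microRNA gene within Igf2, fell to 11 and 12.6 RPKM in tph2-/-, against 18.8 and 21.1 in tph2+/+, and its reads may be those of its host. The basement membrane genes Hspg2, Col4a2 and Col4a1 fell by 0.54, 0.47 and 0.41. The matrix count was 3, 10, 9 and 5 without tph2-/- replicate 1, tph2-/- replicate 2, tph2+/+ replicate 1 and tph2+/+ replicate 2, the collagen count was 3, 4, 4 and 2, and with the Y-linked covariate 17 matrix and 11 collagen genes were lower. In the cadherin list 23 of 44 genes fell, but 19 of these are gamma-protocadherins, which share constant exons, so that they are not separate measurements. The 23 became 1, 2, 2 and 1 without tph2-/- replicate 1, tph2-/- replicate 2, tph2+/+ replicate 1 and tph2+/+ replicate 2, 2 with no filter on the mean, 2 without the trend and robust options, and 1 with the Y-linked covariate. The 22 tested gamma-protocadherins averaged 47.7 and 50.8 RPKM in tph2-/-, 52.6 and 53.7 in tph2+/-, against 55.7 and 60.6 in tph2+/+.

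Genes of cell death, survival signalling and serotonin had small median changes, from -0.01 (AKT and FoxO) to 0.12 (serotonin). Over all tested genes 5.84% were higher and 3.81% lower, and the BCL2 family exceeded the first share most. Of 17 tested BCL2 family genes 4 rose, namely Bbc3, Bid, Bnip3 and Bnip3l, which favour death or mitochondrial removal, by 0.31, 0.46, 0.37 and 0.23. Bid had 4.73 and 5.03 RPKM in tph2-/-, 4.85 and 4.54 in tph2+/-, against 3.43 and 3.11 in tph2+/+. Of 24 death receptor and caspase genes 1 rose and 1 fell, of 30 AKT and FoxO genes 2 rose and 1 fell, and of 18 targets of p53 2 rose and 2 fell, with Cdkn1a, the cell cycle inhibitor, lower by 0.36. Foxo1, a factor held inactive by AKT, had 6.03 and 5.41 RPKM in tph2-/- and 6.12 and 6.12 in tph2+/+ (adjusted p = 0.557), and Bcl2l11, the death-promoting BIM, had 9.24 and 8.68 RPKM in tph2-/- and 8.92 and 9.5 in tph2+/+ (adjusted p = 0.753). The 4 higher BCL2 genes became 1 and 2 when tph2-/- replicate 1 or 2 was left out, 2 and 0 when tph2+/+ replicate 1 or 2 was, and 1 with the Y-linked covariate. Of 14 tested genes of serotonin synthesis, transport, breakdown and reception 2 rose, Pcbd1 and Pcbd2, which recycle the pterin cofactor of the hydroxylases, by 0.56 and 0.33. Pcbd1 had 8.41 and 8.84 RPKM in tph2-/-, 7.71 and 7.89 in tph2+/-, against 5.37 and 5.67 in tph2+/+. The 2 higher p53 targets became 0 without any 1 of the tph2-/- and tph2+/+ libraries, and higher genes numbered 0, 1, 0 and 0 in the AKT and FoxO list and 0, 3, 0 and 0 in the death receptor list without tph2-/- replicate 1, tph2-/- replicate 2, tph2+/+ replicate 1 and tph2+/+ replicate 2. Of the serotonin genes 1 was higher without tph2-/- replicate 1 or either tph2+/+ replicate, and 0 were with the Y-linked covariate.

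Broad metabolic and housekeeping groups had small median changes. Medians were 0.12 for stress response and respiratory chain genes and 0.10 for ribosomal protein genes, against 0.03 over all tested genes. The share of higher genes in the stress response and glycolysis groups was above the 5.84% of all tested genes. Of 23 tested genes of the amino acid stress response 4 rose, among them Asns, asparagine synthetase, which had 21.0 and 18.6 RPKM in tph2-/-, 18.5 and 19 in tph2+/-, against 12.9 and 12.8 in tph2+/+. Of 32 glycolysis and hypoxia genes 8 rose (median 0.10), of which Ldha rose by 0.35 and Pgk1 by 0.28. Of 83 cytosolic ribosomal protein genes 1 rose, of 73 respiratory chain genes 6 rose, and of 38 cell cycle and replication genes 2 rose and 1 fell. Of 16 interferon-induced genes 0 passed by limma and 1 had an unadjusted p under 0.05, against 3448 of all 12869 tested genes. Slc38a5, an amino acid transporter, and Slc40a1, the iron exporter, rose by 1.05 and 0.75, 2 of 12 higher genes among 192 tested solute carriers. In the 4 fits that left out tph2-/- replicate 1, tph2-/- replicate 2, tph2+/+ replicate 1 and tph2+/+ replicate 2, and in the fit with Y-linked expression, the count of higher glycolysis genes was 2, 4, 3, 3 and 0, that of stress response genes 2, 2, 2, 2 and 1, that of respiratory chain genes 0, 3, 2, 0 and 0, and that of solute carriers 3, 6, 3, 3 and 2.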

How the data were processed

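RNA of E11.5 AGM regions (about 1 µg a library) was made into unstranded TruSeq libraries and read as 150 bp pairs, per the labels' protocols. The authors computed the deposited RPKM values, and per the submitters' processing notes they used TopHat2 2.0.9, HTSeq 0.5.3p9 and the build GRCm38. No source used here names the gene models. Of 56826 rows, 33353 named cDNA clones and 27 held dates, and both kinds were left out.

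The design named a count test for a table of counts and limma for RPKM, and the table held RPKM. limma 3.58.1 in R 4.3.3 was fitted, with its trend and robust options, to log2(RPKM + 1) of genes with a mean of 1 RPKM or more, over the 6 libraries in 3 genotype groups and with no covariate. Errors after ± are standard errors of the fit, which pools the spread of the tph2+/- libraries with that of the others. Adjusted p-values are those of Benjamini and Hochberg over every tested gene, and the fit was checked on simulated data. Fold changes on this scale understate the change of low genes. A gene called higher or lower, or said to rise or fall, had an adjusted p under 0.05. Depth was inferred from the steps between low RPKM values, and the 95% intervals on reads cover counting error only.

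The members, gene lists and tests were chosen with earlier results of these data known. Counts over the 85 lists are therefore descriptions beside the share of all tested genes. Genes were named by a rule: the 15 higher and 15 lower with the largest fold change among called genes with no overlap between the tph2-/- and tph2+/+ values, predicted models left out, up to 6 per direction of each list, and a set of serotonin, blood, survival and sex genes. The text gives those that carry a description, and some others are not reported here. Axin2, F2, Fendrr, Fgg, Hoxa11as, Myog, Pros1, Serpina1d, Tbx4 and Tfrc lie outside the rule and were chosen after their values were seen. Promoters came from RefSeq (GRCm38.p6) and gene positions from GENCODE. Alternatives covered the pseudocount, the filter, between-library scaling, the libraries in the fit, a Y-linked covariate, a replicate block, the variance prior and the loss of each library.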

Additional observations from a re-analysis of the deposited data

How the results depend on the processing

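Against 1241 genes in the fit as reported (751 higher, 490 lower), a filter at 5 RPKM gave 795 (403 and 392), with fewer genes tested, no filter gave 802 and 276, the Y-linked covariate 400 (195 and 205), and a fit without the trend and robust options 623 and 315. For these last 3 settings the cause was not tested. A pseudocount of 0.1 gave 759 and 493. Leaving out 1 library gave 383 to 1530 genes, 297 to 901 higher and 81 to 629 lower. Labels give replicate numbers, but deviations of same-numbered libraries correlated at 0.0727, 0.17 and 0.033 between genotypes, so the numbers were not taken as pairs. A replicate block gave 1649 genes (960 higher, 689 lower), and changed no call of the genes named here.

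In none of these fits did a gene of the 1241 pass in the opposite direction. Of the 159 named calls, 155 held after quantile normalization, 156 after trimmed-mean scaling, 143 with no filter and 99 with the Y-linked covariate. Bnip3l, Hoxb5 and Tbx18 lost their calls under both scalings and Bbc3 under quantile normalization. In each of the 4 fits that left out a tph2-/- or tph2+/+ library, 24 named genes missed the threshold, namely Acta2, Alb, Axin2, Bbc3, Bnip3l, C3, Cpox, Foxd3, Gli3, Hoxa10, Hoxa3, Hoxb5, Meg3, Myog, Nr5a1, Ntrk3, Phox2a, Rspo4, S100a9, Serpina6, Shox2, Slc30a10, Tal1 and Tbx18. Genes that had not passed changed sign in some fits: Runx1 was at -0.017 after quantile normalization and -0.278 with the Y-linked covariate, Ddx3y at -0.091 and Xist at 0.598 with that covariate, Pros1 at -0.054 to 0.033 and Bcl2l11 at -0.076 to 0.005 over the fits with 1 library left out. Depth limits genes such as Tph2, whose few reads leave a wide interval.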

Other observations

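Among long noncoding RNAs, Miat, which is transcribed in the nervous system, had 20.2 and 22 RPKM in tph2-/-, 5.76 and 7.35 in tph2+/-, against 4.27 and 4.40 in tph2+/+. It rose by 2.05 ± 0.097 (limma adjusted p = 1.13e-05) and was 1.56 higher than in tph2+/- (adjusted p = 8.05e-05). Malat1, an abundant nuclear RNA, had 76.3 and 75.1 RPKM in tph2-/-, 66.6 and 82.9 in tph2+/-, against 46.9 and 44.4 in tph2+/+, a rise of 0.72. Meg3, an imprinted RNA, fell by 0.37. These genes, and those of the paragraph after this, were chosen after their values were seen.

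Calb2, calretinin, a calcium-binding protein of neurons, had 5.48 and 6.61 RPKM in tph2-/-, 1.06 and 1.47 in tph2+/-, against 1.23 and 1.56 in tph2+/+. Igfbpl1, Calb2 and Apba2, a neuronal adaptor protein, rose by 1.68, 1.56 and 1.14. H2-K1, an MHC class I gene, had 4.47 and 5.5 RPKM in tph2-/-, 4.68 and 6.19 in tph2+/-, against 1.59 and 2.07 in tph2+/+. It rose by 1.08, and 2 further class I genes, H2-D1 and H2-Q10, rose by 0.61 and 1.66. Class I genes are near-identical, so their reads may be split between copies. Within 5 Mb on each side of Tph2, 0 of 37 tested genes passed by limma, against 9.64% of all tested genes. Of the 37, 9 had an unadjusted p under 0.05, against 3448 of all 12869 tested genes.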
